A study of Gallus gallus with 16 samples.

Results

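Circadian clock genes of the chicken pineal gland are described here through the 8 that the arrays carry under the symbols PER3, CRY1, CRY2, CLOCK, BHLHE40, RORA, CSNK1D and CSNK1E. They were chosen by gene symbol in the platform annotation, which gave 9 probes, 2 of them for BHLHE40 and 1 for each other gene, out of 15609 probes that were not control spots. After averaging the probes of a gene, 12532 genes and unnamed probes were tested, 6660 of them with a symbol, and all 8 clock genes were measured on all 16 arrays.

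In the vertebrate clock, CLOCK and its partner BMAL1 switch on the genes of the period (PER) and cryptochrome (CRY) proteins, which return to the nucleus and repress CLOCK and BMAL1. BHLHE40 (DEC1) is a second repressor known from mammals, RORA drives transcription of BMAL1 in mammals, and the casein kinases 1 delta and epsilon (CSNK1D and CSNK1E) phosphorylate the PER proteins and so set their stability. The bird pineal gland contains such a clock of its own, is directly sensitive to light, and makes melatonin at night.

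All glands came from male Rhode Island Red chicks aged 1 week, and each RNA sample was a pool of 5 to 6 glands. Zeitgeber time 0 (ZT0) is the time of lights on, and 3 light schedules, called paradigms, were each compared with their own controls in 12 h light and 12 h dark. In paradigm 1, chicks had 2 h of light late in the night, from ZT22 to ZT24, and they and their dark controls were killed at ZT0 (4 pools each). In paradigm 2, chicks had 2 h of light early in the night, from ZT12 to ZT14, and they and their dark controls were killed at ZT14 (2 pools each). In paradigm 3, chicks lived under a long day, which the design text gives as 15 h light and 9 h dark and the sample titles as 17 h and 7 h, and they and their controls were also killed at ZT14 (2 pools each). Counted from lights on, ZT14 falls in the light phase of either long day and in the dark phase of the controls. Day length and light at the time of killing therefore cannot be told apart in paradigm 3. Each light group had 25 birds.

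Every value is the deposited log ratio between a pool and a common reference mixed from the 16 pools, taken as log2. The labels do not name the numerator, so "higher" and "lower" are statements on that ratio, not on the RNA. With the reference on top every sign would turn at once, leaving sizes and counts as they are. The gland is bulk tissue, in which fewer cells of a type and less RNA per cell cannot be told apart.

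The arrays differed between paradigms. The SD over probes was 0.820 to 1.08 on the 4 arrays of paradigm 3, against 0.391 to 0.510 in paradigm 2 and 0.248 to 0.546 in paradigm 1. Arrays of paradigm 3 correlated with each other at 0.51 to 0.60 over all probes, and with those of paradigm 1 at -0.29 to -0.07. By the array numbers in the labels, the paradigm 1 arrays fell into 2 runs of numbers, called slide series here, with late-night light pool 4 and dark pools 3 and 4 in series 2. Of 15 pinealocyte markers, 6 were measured (TPH1, OTX2, ISL1, NEUROD1, PAX6 and SYP), and a ratio to a pineal reference cannot show whether a gene is expressed.

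By limma's F test, 6 of the 8 genes varied among the 6 groups after adjustment over all genes, against 32.7% of all genes tested. CSNK1E had an adjusted p of 0.000133, PER3 of 0.00129, RORA of 0.00299, CSNK1D of 0.00946, CRY2 of 0.0114 and CLOCK of 0.0288. CRY1 missed the 0.05 threshold at 0.0521 and BHLHE40 at 0.0884. The spread within groups separated the genes as well. CRY1 had a residual SD of 1.11, a rank of 112 from the top among the 12532 genes, while CLOCK had 0.119, at percentile 2.62.

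**Figure D1:**
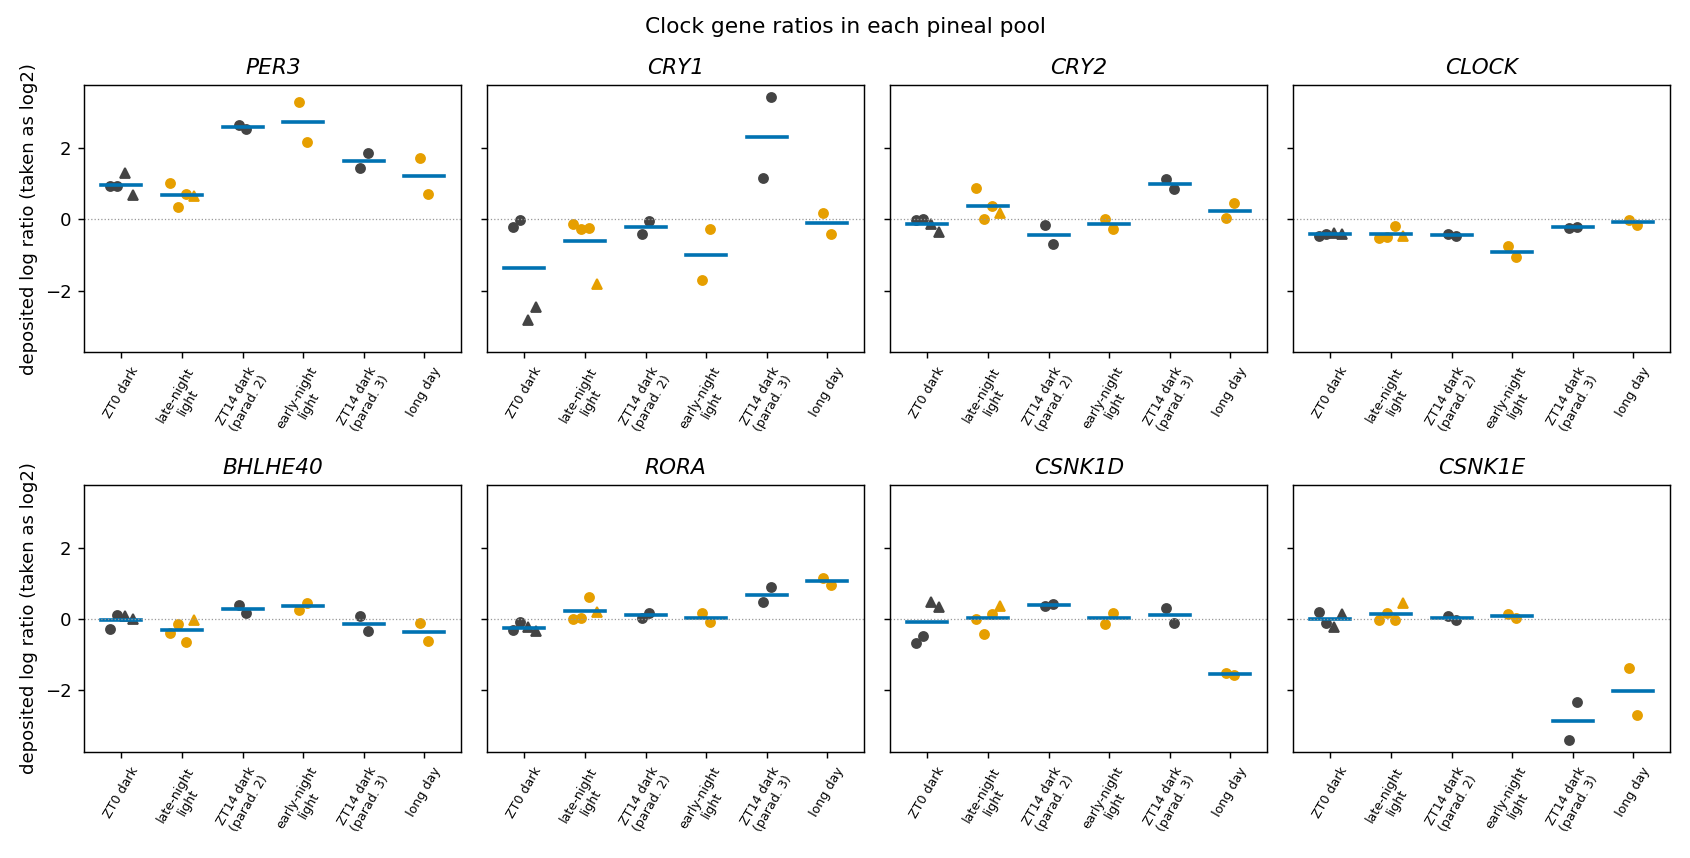
Deposited log2 ratio (vertical axis) of each of the 8 clock genes in each of the 16 pools, by group along the horizontal axis, with 1 panel per gene. Dark controls are black, light groups orange, slide series 2 triangles and group means blue bars; PER3 is above 0 on all 16 arrays, and CSNK1E is near 0 outside paradigm 3, where its 4 pools lie between -3.39 and -1.37.

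PER3, a period repressor, had the largest mean size of any gene tested, at 1.44 over the 16 arrays, and was above 0 on every one of them. Such a single sign on all arrays was shared by 68 genes, or 0.543% of those tested. The reference was mixed from the same 16 pools and the dyes were not swapped. A sign that all arrays share is therefore not a difference between pools, and the part of dye or probe in it was not tested. The dark controls of paradigm 1 at ZT0 had 0.93, 0.95, 1.30 and 0.69, and the late-night light pools had 1.03, 0.36, 0.71 and 0.65. The ZT14 dark controls had 2.65 and 2.55 in paradigm 2 and 1.45 and 1.86 in paradigm 3. Early-night light gave 3.30 and 2.19, and the long day 1.73 and 0.70. Every paradigm 2 pool was above every paradigm 1 pool, with paradigm 3 between and overlapping the latter. In order of the means, early-night light (2.74) and its dark controls (2.60) overlapped, and so did each neighbouring pair among the paradigm 3 controls (1.66), the long day (1.22), ZT0 dark (0.97) and late-night light (0.69).

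PER3 passed the test of ZT0 against ZT14, but no test of a light treatment. All ZT0 pools were of paradigm 1 and all ZT14 pools of paradigms 2 or 3, so time and paradigm cannot be told apart in these tests. Dark controls at ZT0 were at -1.16 ± 0.27 (SE) relative to the mean of both ZT14 dark groups, 4 pools each (limma, adjusted p = 0.00997), and the groups did not overlap, but the difference was 0.05 after quantile normalization, -0.55 after scaling of the arrays and -1.19 on arrays of slide series 1 only (adjusted p = 0.0924), and none of these passed. After light, late-night pools were at -2.06 ± 0.33 relative to early-night pools (adjusted p = 0.0407), a fold of 4.16 that ranked 7 among all genes by p. Limma called 1 of 8 clock genes there, against 0.0878% of all genes. That call ended (adjusted p = 0.151) on arrays of slide series 1 only, with a trended robust prior (0.143), on the compared arrays by themselves (0.153) and without any single light pool except early-night pool 2, with a highest adjusted p of 0.210. Against the paradigm 2 dark controls alone, ZT0 dark had -1.64 ± 0.33 (adjusted p = 0.111), and against those of paradigm 3 alone -0.69 ± 0.33 (adjusted p = 0.125).

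Since no light difference of PER3 passed in paradigms 1 and 2, their light and dark pools were also joined, in a comparison added after the data were seen. The 8 ZT0 pools had a mean of 0.83 and the 4 ZT14 pools 2.67, a difference of -1.85 ± 0.23 (95% confidence interval -2.35 to -1.35; limma, adjusted p = 0.00993). This was the smallest p of the 12532 genes, a fold of 3.60, and limma called 0.726% of all genes. The comparison was chosen on the PER3 values themselves, so its rank and p for PER3 are a description and no independent support. Light tests that did not pass do not show that light and dark pools were alike. The call held in 17 of 17 processing settings and single-pool omissions, in which the difference ran from -2.25 to -1.28, the highest adjusted p was 0.0324 and the rank by p fell to 368 after quantile normalization. On slide series 1 alone, which is not among the 17, the difference was again -1.85 but the call ended (adjusted p = 0.0982). All ZT0 pools belong to paradigm 1 and all ZT14 pools here to paradigm 2, so time and paradigm cannot be told apart. Light itself gave PER3 differences of -0.28 ± 0.27 late at night, 0.14 ± 0.38 early at night and -0.44 ± 0.38 under the long day, with 95% intervals of -0.86 to 0.30, -0.67 to 0.96 and -1.25 to 0.38. None of these passed.

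**Figure D2:**
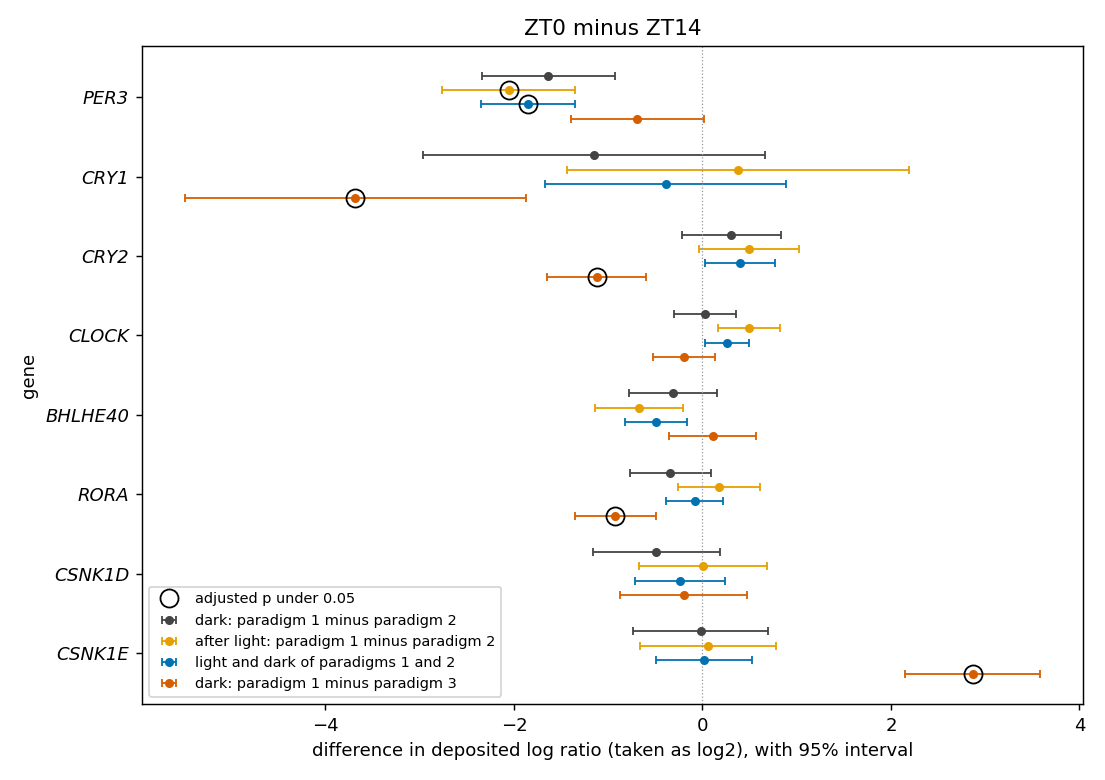
Difference of each clock gene (vertical axis) on the log2 scale (horizontal axis), ZT0 minus ZT14, with bars for 95% confidence intervals. Black and red points set the ZT0 dark controls against the ZT14 dark controls of paradigm 2 and paradigm 3. Orange points are the light groups of paradigms 1 and 2, and blue points all pools of these paradigms. Time and paradigm cannot be told apart in any of them. Circled points had an adjusted p under 0.05, and PER3 is negative in every comparison drawn, from -2.06 to -0.69.

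The cryptochromes CRY1 and CRY2 are repressors that act with the PER proteins. CRY1 had -0.21, -0.01, -2.83 and -2.46 in the ZT0 dark controls and -0.13, -0.27, -0.23 and -1.81 after late-night light. The paradigm 2 dark controls had -0.41 and -0.03, and early-night light -1.70 and -0.27. The paradigm 3 dark controls had 1.18 and 3.44, the long day 0.20 and -0.42. The 3 lowest values of the 16 were those of the 3 arrays of slide series 2, and the paradigm 3 dark controls were above every other pool. In order of the means, those controls (2.31) stood apart, and every other neighbouring pair of groups overlapped, down to ZT0 dark at -1.38.

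Within paradigm 1, CRY1 was lower on slide series 2 than on series 1 by a limma fit with light as a term, at -2.14 ± 0.20 (3 against 5 pools, adjusted p = 0.00686), with means of -2.37 and -0.17 and no overlap. CSNK1D was higher on series 2, by 0.76 ± 0.18 (adjusted p = 0.0437), also without overlap. These were 2 of 8 clock genes, against 7.36% of 12474 genes called and 19.6% without overlap. For CRY1, ZT0 dark was at -2.42 ± 0.69 relative to ZT14 dark (limma, adjusted p = 0.0269), with an interval of -3.90 to -0.94. The groups overlapped, and against the paradigm 2 controls alone the difference was -1.15 ± 0.84 (adjusted p = 0.664). On slide series 1 only, the first difference was -1.15 and did not pass (adjusted p = 0.280), and that against the paradigm 2 controls turned to 0.12. Also on series 1 only, ZT0 minus ZT14 in paradigms 1 and 2 was 0.45 ± 0.43, against -0.39 ± 0.59 on both series. The call for ZT0 against ZT14 dark ended without any single one of ZT0 dark pools 3 and 4, paradigm 2 dark pools 1 and 2 and paradigm 3 dark pool 4, with -2.51 to -1.85 and a highest adjusted p of 0.0859. It also ended with array weights (-1.93), on the compared arrays by themselves, by quantile normalization (-1.71) and by scaling (-2.04). The mean ratio of the 6 lymphoid markers measured was 0.43 and 0.75 in ZT0 dark pools 3 and 4, which are of series 2, -0.04 and 0.05 in the other ZT0 dark pools and 0.01 in late-night light pool 4, also of series 2. Its part in the CRY1 and CSNK1D values was not tested.

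**Figure D3:**
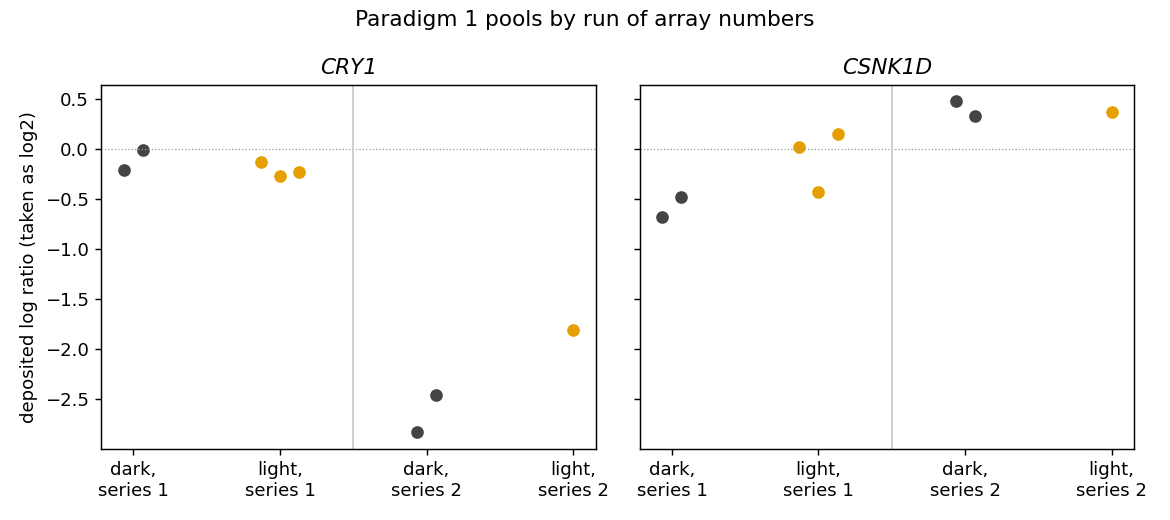
Deposited log2 ratio (vertical axis) of CRY1 and CSNK1D in the 8 pools of paradigm 1, separated by slide series and treatment along the horizontal axis, with dark controls in black and late-night light in orange. CRY1 had means of -0.17 on series 1 and -2.37 on series 2, and CSNK1D of -0.28 and 0.39, in both cases without overlap.

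CRY2 had all 4 late-night light pools above all 4 dark pools, by a margin that was almost nil at one end. The ZT0 dark controls had -0.03, 0.02, -0.13 and -0.34, and the late-night light pools 0.88, 0.02, 0.38 and 0.19. The lowest light pool, at 0.0160, was just above the highest dark pool, at 0.0155. The difference was 0.49 ± 0.20 with an interval of 0.06 to 0.92 (limma, unadjusted p = 0.0297, adjusted p = 1.0), and a two-sided exact permutation test gave p = 0.0286, the smallest that 4 against 4 pools allow. The difference was 0.43 within series 1 and 0.42 within series 2. The dark controls of paradigms 2 and 3, killed at the same time, differed for CRY2. The paradigm 2 controls had -0.15 and -0.69, those of paradigm 3 had 1.14 and 0.86, and the difference of 1.43 ± 0.28 passed (limma, adjusted p = 0.00419), though not with array weights (adjusted p = 0.104), on those 4 arrays by themselves (0.128), by quantile normalization (1.06), by scaling (0.96) or without paradigm 2 dark pool 2 (1.16, adjusted p = 0.0502). The long-day pools, at 0.04 and 0.45, were below both of their controls, with a difference of -0.76 ± 0.28 that did not pass (adjusted p = 0.172). Early-night light had 0.00 and -0.26. In order of the means, paradigm 3 dark (1.00), late-night light (0.37) and the long day (0.24) overlapped in turn. The long day did not overlap the next group, ZT0 dark (-0.12), while late-night light was clear of ZT0 dark only by the margin given above. ZT0 dark, early-night light (-0.13) and paradigm 2 dark (-0.42) again overlapped in turn.

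CLOCK, the activator of the loop, was below 0 on all 16 arrays with little spread. Like that of PER3, this shared sign is not a difference between pools. The ZT0 dark controls had -0.46, -0.40, -0.38 and -0.42, and late-night light -0.51, -0.50, -0.17 and -0.47. The paradigm 2 dark controls had -0.41 and -0.47, and early-night light -0.75 and -1.06. The paradigm 3 dark controls had -0.24 and -0.20, and the long day -0.00 and -0.15. Both early-night light pools were below every other pool, and both long-day pools above every other pool. Early-night light gave CLOCK a difference of -0.46 ± 0.18, with an interval of -0.84 to -0.09 and an unadjusted p of 0.0199 by limma, and did not pass over all genes (adjusted p = 1.0). Late-night light gave 0.00 ± 0.12, with an interval of -0.27 to 0.27, and the long day 0.15 ± 0.18. The difference between the late-night and early-night effects was 0.47 ± 0.21 (unadjusted p = 0.0490 by limma, adjusted p = 1.0), and that between the long day and early-night light was 0.61 ± 0.25 (adjusted p = 0.403).

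RORA, the activator of BMAL1, had its highest ratios in paradigm 3 and its lowest mean in the ZT0 dark controls. The ZT0 dark controls had -0.30, -0.07, -0.23 and -0.33, and the late-night light pools 0.02, 0.04, 0.64 and 0.20, with every light pool above every dark pool. The difference was 0.46 ± 0.16, with an interval of 0.10 to 0.81 (limma, unadjusted p = 0.0149, adjusted p = 1.0; two-sided exact permutation p = 0.0286), and it was 0.42 within slide series 1 and 0.48 within series 2. The paradigm 2 dark controls had 0.03 and 0.18 and early-night light 0.18 and -0.09, which overlapped. The paradigm 3 dark controls had 0.48 and 0.90 and the long day 1.17 and 0.96, which did not. The long-day difference of 0.38 ± 0.23 did not pass (adjusted p = 0.445). ZT0 dark was lower than ZT14 dark by the test, at -0.63 ± 0.16 (adjusted p = 0.0176), without overlap. ZT0 dark was at -0.92 ± 0.20 relative to the ZT14 dark controls of paradigm 3 alone (adjusted p = 0.00324) and at -0.34 ± 0.20 relative to those of paradigm 2 (adjusted p = 0.578). Without ZT0 dark pool 4 (adjusted p = 0.0525), without paradigm 2 dark pool 2 (0.0582), with array weights (0.0527), by quantile normalization (0.0956), by scaling (0.0592) and on slide series 1 only (0.171) it did not pass, with -0.61 to -0.55. The order of the means ran from the long day (1.07) and paradigm 3 dark (0.69) through late-night light (0.22), paradigm 2 dark (0.11) and early-night light (0.04) to ZT0 dark (-0.23), and only the long day stood clear of its neighbour.

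BHLHE40, the repressor also called DEC1, had 2 probes that differed in what they showed. Probe Pat_8h3 had -0.44, 0.48, 0.12 and 0.05 in the ZT0 dark controls, -0.34, -0.14, -0.95 and -0.10 after late-night light, 0.88 and 1.02 in the paradigm 2 dark controls and 0.71 and 1.20 after early-night light. All 4 paradigm 2 pools were therefore above all 8 of paradigm 1. On this probe, ZT0 minus ZT14 over paradigms 1 and 2 was -1.12 ± 0.19 (limma at probe level, adjusted p = 0.0240, against 0.884% of 15389 probes called). This comparison was added after the data were seen, and time and paradigm cannot be told apart in it. Probe Pat_1e3 had 0.14 ± 0.20 (adjusted p = 0.802) and overlapped, with values from -0.67 to 0.04 over these 12 pools. The mean of both probes was at -0.49 ± 0.15 (adjusted p = 0.157), with all 4 paradigm 2 pools above all 8 of paradigm 1, and at -0.68 with an adjusted p of 0.0433 after scaling of the arrays. Pat_8h3 passed in no other comparison of ZT0 with ZT14 (limma at probe level). ZT0 dark was at -0.44 relative to ZT14 dark (adjusted p = 0.190) and at -0.89 relative to the paradigm 2 controls alone (0.312). ZT0 dark was at 0.0071 relative to the paradigm 3 controls alone (0.990). Late-night light was at -1.34 relative to early-night light (0.0827). In paradigm 3 Pat_8h3 was close to 0 in all pools (0.07 and 0.03 in the controls, -0.02 and -0.04 in the long day), and Pat_1e3 had 0.09 and -0.69 in the controls and -0.19 and -1.18 in the long day. For the gene mean, late-night light gave -0.28 ± 0.18, early-night light 0.08 ± 0.25, and the long day -0.23 ± 0.25, and none passed.

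**Figure D4:**
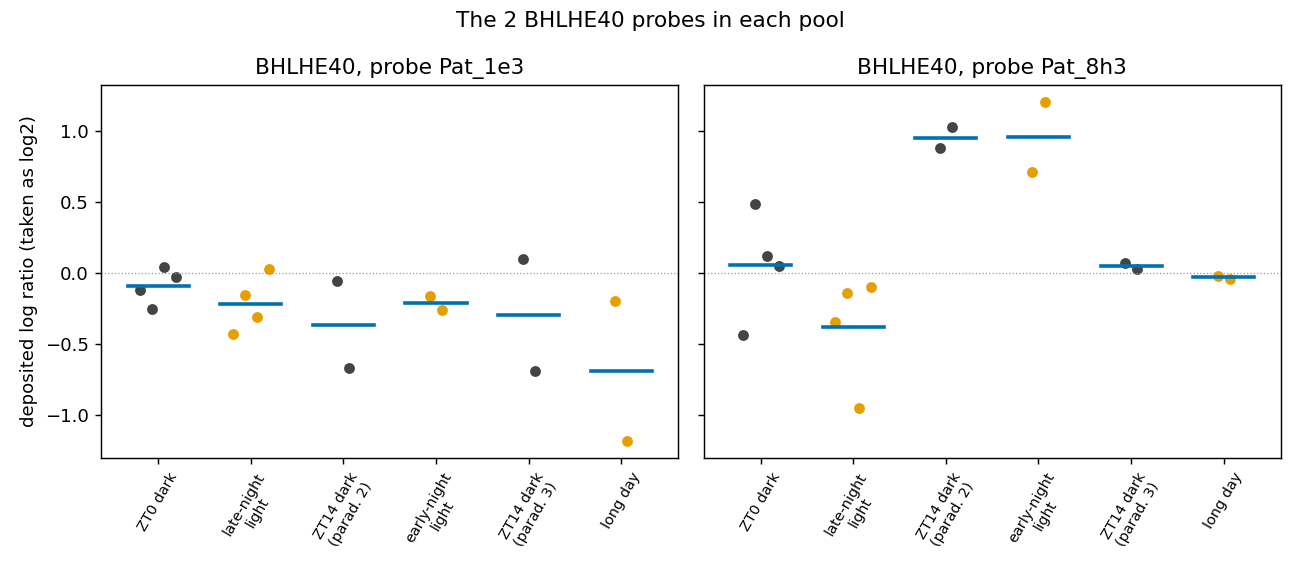
Deposited log2 ratio (vertical axis) of the 2 BHLHE40 probes in each pool, by group along the horizontal axis, with dark controls in black, light groups in orange and group means as blue bars. Pat_8h3 is higher in the 4 paradigm 2 pools (0.71 to 1.20) than in the 8 paradigm 1 pools (-0.95 to 0.48), and Pat_1e3 overlaps between them.

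The 2 casein kinases, which act on PER proteins, differed from each other. CSNK1D had -0.68, -0.48, 0.48 and 0.33 in the ZT0 dark controls, 0.02, -0.43, 0.16 and 0.37 after late-night light, 0.36 and 0.44 in the paradigm 2 dark controls and -0.12 and 0.17 after early-night light. The paradigm 3 dark controls had 0.33 and -0.11, and the long-day pools -1.52 and -1.56, far below every other pool and close to each other. The long-day difference was -1.65 ± 0.36 (interval -2.43 to -0.87, fold 3.14; limma, adjusted p = 0.0300). It was the only clock gene that passed there, against 2.94% of all genes. The value ran from -1.86 to -1.43 without single pools, and the adjusted p was 0.0589 without long-day pool 1, 0.0647 without long-day pool 2 and 0.0690 without dark pool 3, so that the call remained only without dark pool 4. Array weights (adjusted p = 0.653), a fit on those 4 arrays alone (0.826), quantile normalization (-0.94) and scaling to 1 SD (-1.02) each ended it too. Of 34 markers for cells other than pinealocytes, 2 passed in the long day. KDR of endothelial cells was higher at 2.36 ± 0.53 and RGS5 of mural cells lower at -1.64 ± 0.34. Of the 6 pinealocyte markers NEUROD1 was lower, at -1.67 ± 0.41. The mean ratio of the endothelial and mural list was between -0.04 and 0.01 in all 4 pools of paradigm 3, but KDR and RGS5 went opposite ways within it. The part of these cell types in the CSNK1D result was not tested. Late-night light gave CSNK1D 0.12 ± 0.26, with 0.50 within slide series 1 and -0.03 within series 2.

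CSNK1E was between -0.22 and 0.45 in all 12 pools of paradigms 1 and 2 and far below them in all 4 of paradigm 3. Its ZT0 dark controls had 0.21, -0.10, -0.22 and 0.15, and late-night light -0.03, 0.18, -0.03 and 0.45. The paradigm 2 dark controls had 0.09 and -0.03 and early-night light 0.14 and 0.03, which overlapped. The paradigm 3 dark controls had -3.39 and -2.32 and the long day -1.37 and -2.68, again with overlap. The long day was at 0.83 ± 0.39 relative to its controls and did not pass (adjusted p = 0.281). This difference depended on single pools, at 0.18 without long-day pool 1 and 1.49 without long-day pool 2. The 2 dark groups at ZT14, which carry the same labelled treatment and time, differed by -2.89 ± 0.39 (limma, adjusted p = 0.000427, fold 7.39). It kept its sign but did not pass with those 4 arrays alone (adjusted p = 0.111), after quantile normalization (-1.61) or after scaling (-1.59). ZT0 dark was at 1.42 ± 0.27 relative to the mean of both ZT14 dark groups (adjusted p = 0.00410), but at -0.02 ± 0.33 relative to the paradigm 2 controls alone (adjusted p = 0.989) and at 2.87 ± 0.33 relative to those of paradigm 3. The first of these did not pass after quantile normalization (0.77), after scaling (0.73) or on slide series 1 only (adjusted p = 0.0517).

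**Figure D5:**
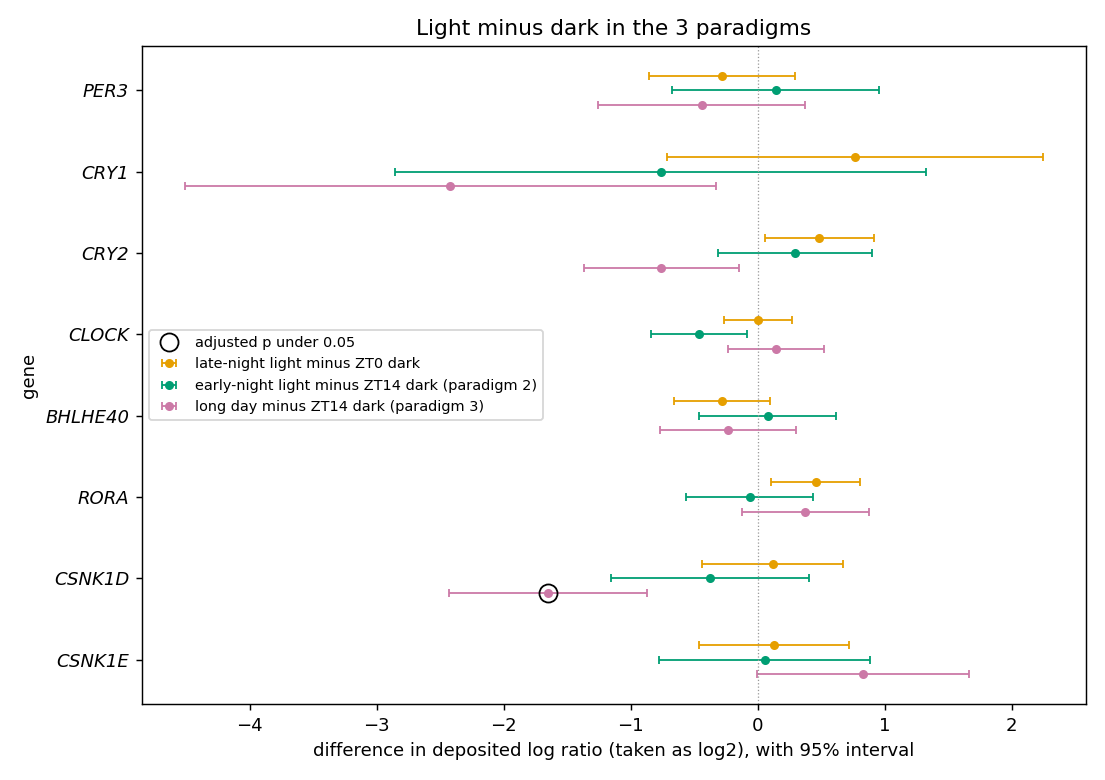
Difference between light group and its dark controls (horizontal axis, log2 scale, bars for 95% confidence intervals) for each clock gene (vertical axis), with late-night light in orange, early-night light in green and the long day in pink. The circle marks an adjusted p under 0.05, and the one circled point is CSNK1D in the long day at -1.65.

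Read across genes, light in the night changed no clock gene past the test. Late-night light called 0 of 8 clock genes and 0% of all genes by limma, with 2 of 8 at an unadjusted p under 0.05 (CRY2 and RORA) against 4.21% of all genes, and those 2 also had groups that did not overlap, against 4.59%. The exact permutation p-values adjusted over all genes were 0.622 for both. In the same comparison 1 of 6 lymphoid and 0 of 7 macrophage markers had a difference above 0, with medians of -0.28 and -0.10. All 4 choroid plexus and ependyma markers measured were above 0, with a median of 0.34, and the other lists had medians between these. The lymphoid mean was highest in ZT0 dark pools 3 and 4, at 0.43 and 0.75, both of slide series 2. No marker passed, and the part of these cell types in the CRY2 and RORA values was not tested. Early-night light called 0 of 8, against 0.00798% of all genes, with CLOCK at an unadjusted p under 0.05 against 4.20%. CLOCK and CSNK1D had groups that did not overlap, against 35.2%. The long day called CSNK1D alone, and 5 of 8 genes had groups that did not overlap, against 35.8%. At an unadjusted p under 0.05 there were 3 (CSNK1D, CRY2 and CRY1), against 17.8%. Tests of the difference between light effects called 0 of 8, with 0.0399% of all genes for late-night minus early-night light, while the long day minus early-night light gave 0.0239%, and 1 and 3 of the 8 at an unadjusted p under 0.05, against 4.12% and 10.5%. The SE over the 8 genes was 0.18 to 0.97 for the early-night pulse and the same for the long day. They are equal because the fit used 1 spread per gene over all 6 groups, with 2 pools per group in both. The residual SD was 0.379 to 0.471 on paradigm 3 arrays and 0.224 to 0.258 on those of paradigm 2. P-values for paradigm 3 groups therefore rest on a spread shared with less variable arrays. The median difference of the 8 genes was 0.12 in late-night light, -0.00 in early-night light and -0.34 under long days, against -0.00, 0.00 and -0.01 over all genes.

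All ZT0 pools were of paradigm 1, so time and paradigm cannot be told apart in any comparison of ZT0 with ZT14. ZT0 against ZT14 called 4 of 8 genes in the dark controls, PER3, CRY1, RORA and CSNK1E, against 19.0% of all genes. PER3 and RORA had groups that did not overlap, against 12.9%. Against the paradigm 2 controls alone the count was 0 of 8, against 0.0319% of all genes, with PER3 alone at an unadjusted p under 0.05, against 10.4%. Against the paradigm 3 controls alone it was 4 of 8 (CRY1, CRY2, RORA and CSNK1E), against 34.0%. The paradigm 3 dark controls minus those of paradigm 2 called 2 of 8, CRY2 and CSNK1E, against 20.6% of all genes, and all 8 had groups that did not overlap, against 57.8%. CRY1 was at 2.53 ± 0.97 there (adjusted p = 0.0813), PER3 at -0.95 ± 0.38 (0.0936) and RORA at 0.58 ± 0.23 (0.0907). The CRY1 difference was 3.66 without paradigm 3 dark pool 3 and 1.40 without paradigm 3 dark pool 4. With light, 4 of 8 genes had groups that did not overlap between ZT0 and ZT14, against 26.0%. In the paradigm 1 and 2 pools together, PER3 and BHLHE40 had groups that did not overlap, against 5.28%. That comparison was chosen on the PER3 values, so the separation of PER3 in it is a description and no independent support. Of the BHLHE40 probes, Pat_8h3 did not overlap there and Pat_1e3 did. The median of the 8 genes was -0.38 for ZT0 minus ZT14 dark and -0.16 in paradigms 1 and 2 together, against -0.03 and 0.00 over all genes. The first of these comparisons and the others that use paradigm 3 dark controls share those pools.

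Of 54 further clock-related symbols listed, some of them old and new names of the same gene, 21 were measured. PER2, BMAL1, NR1D1 and CRY4 were not among them. None of these 21 passed by limma in late-night light, early-night light or the long day, nor for ZT0 against ZT14 after light, ZT0 dark against the paradigm 2 controls, paradigms 1 and 2 together or either difference between light effects. At an unadjusted p under 0.05 there were 1, 0 and 2 of the 21 in the 3 light treatments, in that order, against 4.21%, 4.20% and 17.8% of all genes. For ZT0 against ZT14 dark, 3 passed, all higher, against 8.61% of all genes higher and 10.4% lower: CSNK1G1, another casein kinase 1, at 1.22 ± 0.17 (adjusted p = 0.00110), TIPIN, a partner of TIMELESS, at 0.90 ± 0.15 (0.00200), and NONO, an RNA-binding protein that joins PER complexes in mammals, at 0.82 ± 0.15 (0.00326). These 3 genes were lower in the paradigm 3 dark controls, which both comparisons use, than in those of paradigm 2, TIPIN at -1.96 ± 0.21, NONO at -1.52 ± 0.21 and CSNK1G1 at -1.41 ± 0.25, along with the phosphatase subunit PPP1CC at -0.995 ± 0.27 and DYRK1A at -1.81 ± 0.55, while the deubiquitinase USP2 was higher at 0.85 ± 0.22. That is 1 higher and 5 lower of 21, against 11.2% and 9.40% of all genes. After quantile normalization all 6 kept their sign and none passed (adjusted p from 0.0710 to 0.429), and of the 3 at ZT0 only CSNK1G1 did (0.91, adjusted p = 0.0178). With array weights PPP1CC, DYRK1A and USP2 did not pass between the dark groups (limma, adjusted p = 0.121, 0.246 and 0.167), while TIPIN, NONO and CSNK1G1 did. DYRK1A had 0.73 and 2.59 in the paradigm 2 dark controls and 0.25 and -0.55 in those of paradigm 3. Against the paradigm 3 dark controls alone, 4 of 21 were higher at ZT0, against 15.0% of all genes, and 1 was lower, against 19.1%, namely BTRC, a subunit of the ubiquitin ligase that acts on PER proteins in mammals, at -0.63 ± 0.18. BTRC did not pass there with array weights (limma, adjusted p = 0.129), after quantile normalization (0.205) or after scaling (0.157). Of the 4 higher genes, PPP1CC also passed in none of these settings (0.196, 0.156 and 0.177). TIPIN, CSNK1G1 and NONO passed in all of them.

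Among those that did not pass, USP2 had the smallest p of the 21 for late-night light, at -0.43 ± 0.15 (limma, unadjusted p = 0.0137, adjusted p = 1.0), while in early-night light it was at 0.44 ± 0.22 (adjusted p = 1.0). NONO had the smallest for the long day, at 0.76 ± 0.21 (adjusted p = 0.0705), and NCOR1 was at -0.63 ± 0.27 there (adjusted p = 0.237). The median difference of the 21 was -0.01 for late-night light, -0.04 with early-night light and -0.04 under the long day, against -0.00, 0.00 and -0.01 over all genes.

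The genes most like each clock gene were taken by Pearson correlation over the 12 arrays of paradigms 1 and 2, from 6641 genes with a symbol, and are given as a description, since all share the same arrays, reference and slides. PER3 was most like MYO1G (0.924), SHPK (0.918) and CRNKL1 (0.900), which over all 16 arrays had 0.336, 0.240 and 0.800. CRY1 was most like MTPAP (0.935), PIK3R1 (0.913) and CPNE2 (0.903), with 0.760 to 0.821 over 16 arrays. CLOCK was most like PDIA3 at 0.925, with 0.899 over 16 arrays. BHLHE40 was most like SFI1 (0.947), SLC37A2 (0.941) and MTCH2 (0.929), with 0.812 to 0.843 over 16 arrays. CRY2 was most like SYAP1 at 0.919, which had -0.233 over 16 arrays, RORA most like WDCP at 0.901, with 0.572 over 16 arrays, CSNK1D most like FAM168B at 0.907, with 0.752 over 16 arrays, and CSNK1E most like IL2 at 0.836, which had -0.596 over 16 arrays. The 16 arrays include the 12 on which these genes were picked, so the 2 values are not independent.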

How the data were processed

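Values were the log ratios of 16 two-colour arrays, deposited by the authors and taken as log2 because the largest size was 10.1. Per the labels, amplified pineal RNA carried the Cy3-type dye and the reference mixed from the 16 pools the Cy5-type dye on each array, with no swap. GenePix files are named in the labels, while numerator, log base, background correction, normalization and genome build were not given in the sources used here. Intensities were not used here, so the number of arrays limits precision.

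Of 15769 probes, 160 control spots were left out. Symbols came from the platform annotation (9628 probes with 1 symbol, 5981 with none), and probes of a gene were averaged. Genes measured on at least 2 arrays of every group were kept, which removed 159 of 12691. limma 3.58.1 in R 4.3.3 fitted 6 group means with eBayes (residual df 10, prior df 3.33) and Benjamini-Hochberg adjustment over all genes within a comparison. The fit was tested on simulated data with 1 SD per gene on all arrays. That test does not cover the wider spread of paradigm 3 or the slide series. Pools were the replicates, and p-values reflect their spread as estimated once per gene over all 6 groups, not within the groups compared.

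Alternatives were array weights, only the arrays compared, a trended robust prior, quantile normalization, scaling, filters, probe medians, slide series and single-pool omission. Slide series 1 alone and the joined paradigms 1 and 2 were added after seeing the data. All 8 genes were named in every comparison, with called members of the wider list and up to 4 of smallest p, and 3 like genes per clock gene. Genes, the wider list and 8 marker lists (pinealocyte, lymphoid, macrophage, erythroid, endothelial and mural, astrocyte and interstitial, neuronal, choroid plexus and ependyma) were chosen with earlier results of these data known.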

Additional observations from a re-analysis of the deposited data

Results flagged for a closer look

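In groups of 4 pools, 16 sets of values were examined for a pool far from the others, and chance marks about 1 in 20. CRY1 in late-night light pool 4 had -1.81 while the other 3 pools were between -0.27 and -0.13, a gap of 0.915 of the range. That array is of slide series 2. CLOCK in late-night light pool 3 had -0.17 while the other 3 were between -0.51 and -0.47, a gap of 0.859 of the range.

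CLOCK had a difference of 0.15 in the long day, where both pools were above both controls, and one of -0.46 in early-night light, where both pools were below both controls. The test of that difference gave 0.61 ± 0.25 and did not pass (limma, adjusted p = 0.403). CRY2 had 0.49 after late-night light, with every light pool above every dark pool, and -0.76 in the long day, with every light pool below every dark pool, and the difference between these effects was not tested.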

How the results depend on the processing

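Among values of single genes, and apart from omission of single pools, 606 of 664 alternative values kept direction and side of the threshold. Of the others, 35 kept direction but lost a call, 2 gained one and 21 turned sign. Most of the 664 belong to values that had no call to lose, so the 606 does not measure how firm the calls were. Late-night light and both differences between light effects called 0 of the 8 genes under every alternative run. The share of all genes called ran from 0% to 0.0239% for late-night light and from 0% to 0.359% for late-night minus early-night light. For the long day minus early-night light it ran from 0% to 3.10%. These counts of 0 are therefore not particular to the clock genes. The counts of clock genes called elsewhere were as follows. The share of all genes called in the same setting follows each count. The long day called 0 with array weights, on the compared arrays alone, after quantile normalization and after scaling (0% each), and 0 to 1 without single pools (4.50% to 9.53%). ZT0 against ZT14 dark called 2 with array weights (12.2%), 0 with quantile normalization (7.09%), 0 with scaling (7.49%), 0 against paradigm 2 dark alone (0.0319%), 1 in paradigms 1 and 2 together (0.726%), 0 on slide series 1 (4.20%) and 2 to 4 without single pools (11.6% to 25.6%). Paradigm 3 against paradigm 2 dark called 1 with array weights (6.16%), 0 on the compared arrays alone (0%), 0 after quantile normalization (0.176%), 0 after scaling (0.311%) and 1 to 3 without single pools (8.94% to 25.8%). ZT0 against ZT14 light called 0 on the compared arrays alone (0.0718%), 0 with a trended robust prior (0.0399%), 0 on slide series 1 (0.0160%) and 0 to 1 without single pools (0.00798% to 0.287%). Early-night light called 1 with all 4 ZT14 dark pools as controls, CSNK1E at 1.50 (3.13%). Against its own paradigm 2 controls CSNK1E was at 0.06, and the paradigm 3 dark pools that were added had -3.39 and -2.32. The F test called 3 after quantile normalization (12.5%) and 4 to 7 without single pools (28.4% to 37.9%). Over all genes, the long day went from 369 calls to 0 and ZT0 against ZT14 dark from 2385 to 888 after quantile normalization.

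These signs turned. For late-night light, CLOCK had -0.042 with array weights, -0.0019 with slide series as a block and -0.066 within series 2, CRY1 -0.10 and CSNK1E -0.017 within series 1, and CSNK1D -0.035 within series 2. For ZT0 against ZT14 light, CSNK1D had -0.13 with array weights, -0.082 with quantile normalization, -0.085 with scaling and -0.11 on slide series 1, and CSNK1E -0.048 on slide series 1. For ZT0 against ZT14 dark, PER3 had 0.052 after quantile normalization, CRY2 0.31, CLOCK 0.026 and CSNK1E -0.019 against paradigm 2 dark alone, BHLHE40 0.11 against paradigm 3 dark alone, and CRY2 0.40 and CLOCK 0.26 in paradigms 1 and 2 together. With all 4 ZT14 dark pools as controls, CRY2 had -0.42 in early-night light and CSNK1E -0.61 in the long day. CSNK1E had -0.073 for late-night minus early-night light on slide series 1. On that series, ZT0 dark against paradigm 2 dark alone turned from -1.15 to 0.12 in CRY1 and from -0.019 to 0.025 in CSNK1E, and paradigms 1 and 2 together from -0.39 to 0.45 in CRY1 and from 0.018 to -0.011 in CSNK1E, the latter also at -0.015 after scaling and from -0.033 to 0.056 without single pools. The cause was not tested.

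Without single pools, ranges crossed 0 for late-night light in CLOCK (-0.079 to 0.035) and CSNK1D (-0.079 to 0.31). They did so for early-night light in PER3 (-0.41 to 0.70), BHLHE40 (-0.038 to 0.19), RORA (-0.20 to 0.072) and CSNK1E (-0.0021 to 0.11), and for the long day in PER3 (-0.95 to 0.076) and BHLHE40 (-0.48 to 0.018). They did so for ZT0 against ZT14 dark in BHLHE40 (-0.20 to 0.0026), and for ZT0 against ZT14 light in CRY1 (-0.34 to 1.09), CSNK1D (-0.14 to 0.16) and CSNK1E (-0.048 to 0.11). For late-night minus early-night light they did so in PER3 (-0.98 to 0.13), CRY2 (-0.080 to 0.46) and CSNK1E (-0.028 to 0.14). With pool number as a replicate block, 0 clock genes were called for late-night light, early-night light and their difference. The share of all genes called was also 0% in each, so these counts are not particular to the clock genes. Same-numbered light and dark pools of paradigm 1 correlated at 0.308, 0.190, 0.00182 and 0.317 in their deviations. Light pool 2 of paradigm 1 was closer to dark pool 1 of that paradigm (0.347). In paradigm 2, same-numbered pools had 0.120 and the others -0.120, equal in size because the 2 deviations of a group are opposite. Whether the numbers pair the pools is therefore not settled. Intensities over background were not used here, so limits from dim probes are unknown.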

Other observations

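Marker lists were read beside the clock genes. Of the 6 pinealocyte, 6 lymphoid, 7 macrophage, 3 erythroid, 8 endothelial and mural, 3 astrocyte and interstitial, 3 neuronal and 4 choroid plexus and ependyma markers measured, limma called 0 for late-night light and 0 for early-night light. Late-night light had differences above 0 in 3, 1, 0, 1, 3, 2, 1 and 4 of them, in that order, with list medians from -0.28 (lymphoid) to 0.34 (choroid plexus and ependyma). In the paradigm 1 and 2 pools together, where PER3 passed, limma called HBBA, an erythroid haemoglobin gene, as lower and no other marker, against 0.726% of all genes. For ZT0 against ZT14 dark it called AQP1 and SOX9 as higher and RGS5 and TPH1 as lower, against 19.0% of all genes. CSNK1E and CRY2 passed for the paradigm 3 dark controls against those of paradigm 2. There limma called DNAH9 and TEK as higher and AQP1, HBBA and KDR as lower. Of the pinealocyte markers it called 1 as higher and 1 as lower (ISL1 and PAX6), and of all genes 20.6%. In the same comparison of dark controls, 0 of 3 erythroid and 0 of 3 astrocyte and interstitial markers had a difference above 0. Their medians were -0.96 and -0.74. The other list medians ran from -0.16 (lymphoid) to 0.16 (endothelial and mural). The part of these cell types in the clock gene results was not tested.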
